A study of Mus musculus with 16 samples.

Results

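The passage from embryonic stem cells (ESC) to epiblast-like cells (EpiLC) in the TET_WT line was followed in 4 of the 16 samples of the series, chosen by their labelled genotype, cell type and day. The deposited table of promoter contacts holds them as 2 of its 8 columns, 1 for each stage. TET_WT is the unmodified mouse ESC line from which TET_KO, lacking Tet1, Tet2 and Tet3, was made, so neither stage carries a deleted gene. The ESC group was kept in 2i/Lif medium and labelled day 0, and the EpiLC group was labelled day 2 of differentiation. The labels list 2 replicates for each stage, while the series text speaks of triplicates in general, and no source used here states how replicates were combined into a column or whether the line is 1 clone. The same stages were measured in TET_KO, in a second wild-type line (DNMT_WT) and in its derivative without Dnmt1, Dnmt3a and Dnmt3b (DNMT_KO).

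Cells in 2i/Lif are held in naive pluripotency, the state of the preimplantation epiblast, with low DNA methylation. EpiLC model the formative state that follows, in which naive transcription factors are switched off, de novo methyltransferases write methylation over the genome and TET enzymes oxidise it at regulatory elements. Promoter-capture Hi-C reads which DNA lies close to gene promoters: cross-linked chromatin is cut with HindIII and religated, and ligation products that contain a promoter fragment, the bait, are pulled out with RNA probes.

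The table lists 260860 interactions of 20017 promoter fragments. Each value is a CHiCAGO score, which grows as a contact exceeds the read count modelled for its distance and noise, and by convention 5 or more is a call. Each listed interaction reached 5 in at least 1 of the 8 columns, so the list itself was chosen partly by the other lines. Read depth is unknown, and a score rises with depth as well as with contact frequency. With 1 column per stage no SD, p-value or test exists for TET_WT, and its values below are descriptions of those columns. Contact scores do not measure RNA, so the labelled cell states could not be checked by marker expression.

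In TET_WT, 86557 interactions were called in ESC and 93930 in EpiLC, and 47513 were called in both, which is 54.9% of the ESC calls and 50.6% of the EpiLC calls. The ratio of EpiLC to ESC calls was highest for contacts of 1 to 10 Mb. Contacts under 100 kb went from 15213 to 15927 calls, a ratio of 1.05, and contacts from 100 kb to 1 Mb went from 67751 to 72568, a ratio of 1.07. Contacts spanning 1 to 10 Mb went from 2083 to 3572, a ratio of 1.71, and within them those of 2 to 5 Mb went from 397 to 768, a ratio of 1.93. Beyond 10 Mb the calls went from 553 to 663, and between chromosomes from 957 to 1200. The 1 to 10 Mb ratio was also above 1 in DNMT_WT at 2.88, in DNMT_KO at 1.89 and in TET_KO at 1.36. Contacts between a pair of promoter fragments within 1 Mb went the other way in TET_WT, from 9265 to 8630 calls, a ratio of 0.93. For these the lines differed, with ratios of 0.93 in DNMT_WT, 1.24 in DNMT_KO and 1.11 in TET_KO.

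**Figure D1:**
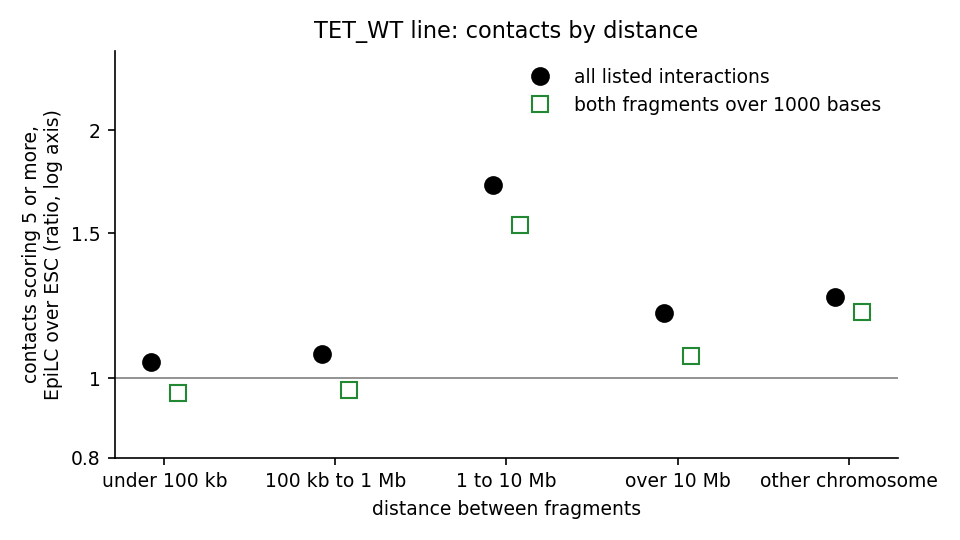
Ratio of EpiLC to ESC calls in TET_WT (vertical axis, log scale) for each distance class (horizontal axis), for all interactions (circles) and for those whose fragments both exceed 1000 bases (open squares), with a line at 1. The ratio over all interactions is 1.71 for contacts of 1 to 10 Mb and 1.07 for those of 100 kb to 1 Mb.

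The change in score between stages differed with the length of the HindIII fragments. Among contacts within 1 Mb that did not join a pair of baits, 50623 had an other end of at most 1000 bases, and their median score was 2.68 in ESC and 4.10 in EpiLC. The 164790 contacts with a longer other end had medians of 4.20 and 4.16. A contact is called gained here when it scored 5 or more in EpiLC and under 3 in ESC, and lost in the reverse case. Of contacts with a 401 to 600 base other end, 28.0% were gained and 0.472% lost, with medians of 1.71 and 4.53. Short ends did not behave alike in every line. At 400 bases or fewer TET_WT gained 14.1% and lost 0.137%, TET_KO gained 39.6% and DNMT_KO gained 23.0%, whereas DNMT_WT gained 5.21% and lost 15.6%. At 401 to 600 bases DNMT_KO also lost more than it gained, 15.0% against 8.12%. When both fragments had to exceed 1000 bases, a condition added after these values were seen, the TET_WT call ratio was 0.984 over all contacts and 0.969 from 100 kb to 1 Mb. The ratio for 1 to 10 Mb was then 1.53, from 1832 to 2812 calls. The part that fragment length, library preparation or depth has in the remaining differences was not tested.

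**Figure D2:**
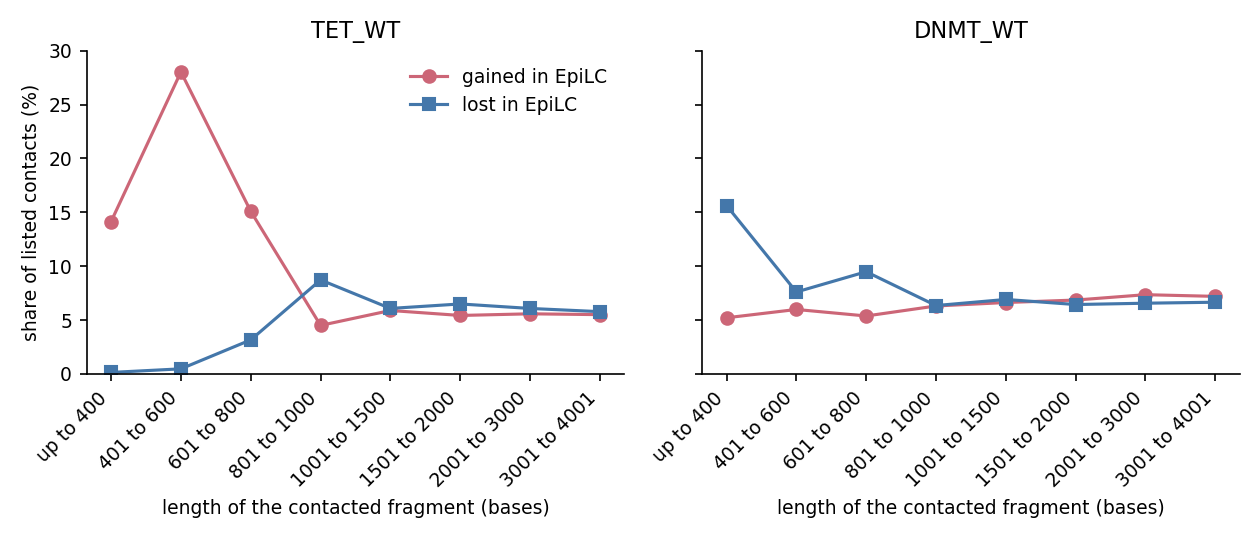
Share of contacts gained and lost (percent, vertical axis) by length of the contacted HindIII fragment in bases (horizontal axis), for non-bait contacts within 1 Mb, in TET_WT (left) and DNMT_WT (right). In TET_WT the gained share reaches 28.0% at 401 to 600 bases, and in DNMT_WT the lost share is 15.6% at the shortest fragments.

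Gained contacts outnumbered lost ones in TET_WT, 20889 against 14638, or 8.29% and 5.81% of 252104 interactions scored at both stages. Between fragments over 1000 bases the numbers were 11873 and 12267, or 6.18% and 6.39% of 192031, so the direction of the balance depended on the short fragments. Turnover grew with distance: 4.79% of contacts under 100 kb were gained and 2.31% lost, 18.4% and 8.51% of those of 1 to 10 Mb, and 22.4% and 16.9% of those beyond 10 Mb. Of the gained contacts, 27.9% also scored higher in EpiLC in all 3 other lines, against 19.0% of all scored contacts, and with long fragments alone the shares were 27.3% and 18.4%. Of the lost contacts, 27.3% scored lower in all 3 other lines, against 16.8% of all. Few crossed both limits everywhere: 72 contacts were gained in all 4 lines and 34 were lost in all 4.

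For each promoter the scores were quantile normalised over the 8 columns, put on the inverse hyperbolic sine (asinh) scale and averaged over its contacts. A difference of 0.69, the natural log of 2, is close to a doubling of a high score. Scores of single contacts and their means over a stretch are given on the CHiCAGO scale as deposited. Of 15677 promoters with 3 or more contacts, 360 were higher in EpiLC by at least that much (2.3%) and 571 were lower (3.64%), around a median difference of -0.02. The split depended on the scaling: without normalisation 599 were higher and 315 lower, which put 65.5% of them on the higher side instead of 38.7%. Scaling by column means gave 53.7% higher. The members had few contacts, a median of 6 for the higher and 5 for the lower promoters against 11 for all. Between fragments over 1000 bases 365 of 14493 promoters were higher (2.52%) and 427 lower (2.95%). Just inside the limit lay Mrps23 at 0.70, and just outside it Ranbp3 at 0.69.

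The stage differences of the 3 other lines did not choose these promoters, although those lines shared the contact list and the normalisation with TET_WT. They were tested with limma on their paired stages, adjusted by Benjamini-Hochberg over all 15677 promoters. Its p-values measure the spread between lines, of which DNMT_KO derives from DNMT_WT and TET_KO from TET_WT itself. The test called 189 promoters higher in EpiLC (1.21%) and 252 lower (1.61%). Of the 360 promoters higher in TET_WT, 26 rose there (7.22%) and 1 fell, a U6 gene. Of the 571 lower in TET_WT, 44 fell (7.71%) and 0 rose. At an unadjusted p below 0.05 in limma, 228 of them were lower and 8 higher, and 107 of the 360 were higher, beside 12.6% of all promoters lower and 10.5% higher. Between fragments over 1000 bases the test called 207 promoters higher (1.43%) and 253 lower (1.75%), and 24 of 365 higher TET_WT promoters rose and 39 of 427 lower ones fell. The difference had the TET_WT sign in all 3 other lines for 42.2% of the higher promoters, against 21.1% of all, and for 55.2% of the lower ones, against 23.6% of all.

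Among promoters with at least 10 contacts, the 10 with the largest TET_WT increase were Pvrl3, Gcap14, Vcan, Isx, Rp1, Id2, Pdcd4, Opn5, Steap4 and Gm15122. Sequence is shown for 3 of the named promoters in each direction, because CpG dinucleotides are what DNMT and TET enzymes act on. The RefSeq start window (GRCm38.p6) of each overlaps its captured bait, only in part for Vcan. Named promoters that are not shown may also have such a window. Each run goes from 250 bases before to 50 after the start on the gene's strand, 5′ to 3′, with every CpG in capitals. The higher promoters shown are chr14:36968715-36969014 (minus strand, the Ccser2 window in the Gcap14 bait), chr13:89742463-89742762 (minus strand, Vcan) and chr8:74872924-74873223 (plus strand, Isx). The lower ones are chr13:102693297-102693596 (plus strand, Cd180), chr5:64932650-64932949 (minus strand, Tlr1) and chr17:50293571-50293870 (minus strand, Dazl).
Gcap14: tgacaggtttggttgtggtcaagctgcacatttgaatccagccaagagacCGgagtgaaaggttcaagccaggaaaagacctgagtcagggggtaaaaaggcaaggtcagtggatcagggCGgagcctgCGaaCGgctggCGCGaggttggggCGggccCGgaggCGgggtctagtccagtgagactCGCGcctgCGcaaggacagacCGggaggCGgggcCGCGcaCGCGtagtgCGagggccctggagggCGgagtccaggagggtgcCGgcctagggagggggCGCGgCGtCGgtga
Vcan: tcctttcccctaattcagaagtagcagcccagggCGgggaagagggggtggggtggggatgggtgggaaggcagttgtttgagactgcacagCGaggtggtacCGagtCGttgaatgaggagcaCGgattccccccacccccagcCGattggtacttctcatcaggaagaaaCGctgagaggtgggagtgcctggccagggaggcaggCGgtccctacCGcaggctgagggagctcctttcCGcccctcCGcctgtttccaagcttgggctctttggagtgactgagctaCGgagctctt
Isx: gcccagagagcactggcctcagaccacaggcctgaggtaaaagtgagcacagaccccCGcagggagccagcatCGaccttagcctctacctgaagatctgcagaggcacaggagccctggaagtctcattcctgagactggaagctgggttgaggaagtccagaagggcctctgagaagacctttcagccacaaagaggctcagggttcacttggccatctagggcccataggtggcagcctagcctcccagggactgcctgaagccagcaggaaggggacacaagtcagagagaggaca
Cd180: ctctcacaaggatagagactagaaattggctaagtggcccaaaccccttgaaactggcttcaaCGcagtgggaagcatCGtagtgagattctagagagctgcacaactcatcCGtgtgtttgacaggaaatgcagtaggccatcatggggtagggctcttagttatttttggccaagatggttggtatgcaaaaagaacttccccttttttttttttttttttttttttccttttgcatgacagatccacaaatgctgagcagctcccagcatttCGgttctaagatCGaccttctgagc
Tlr1: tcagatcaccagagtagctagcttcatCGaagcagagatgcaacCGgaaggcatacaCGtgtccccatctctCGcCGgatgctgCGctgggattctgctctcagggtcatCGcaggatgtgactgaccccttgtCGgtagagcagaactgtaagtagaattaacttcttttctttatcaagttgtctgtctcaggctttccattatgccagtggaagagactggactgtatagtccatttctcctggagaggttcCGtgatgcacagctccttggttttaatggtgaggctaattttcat
Dazl: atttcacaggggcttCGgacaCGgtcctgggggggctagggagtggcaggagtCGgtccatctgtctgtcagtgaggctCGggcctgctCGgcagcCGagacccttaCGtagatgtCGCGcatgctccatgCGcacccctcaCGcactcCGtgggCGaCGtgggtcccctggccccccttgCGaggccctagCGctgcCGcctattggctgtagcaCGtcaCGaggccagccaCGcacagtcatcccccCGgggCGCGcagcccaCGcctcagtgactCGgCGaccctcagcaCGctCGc
The windows ran from CpG-poor to CpG-dense in both directions of change. Among the higher promoters the Gcap14 bait held 25 CpG, an observed to expected ratio of 0.85, Vcan held 12 with a ratio of 0.44, and Isx held 2 with a ratio of 0.08. Among the lower promoters Dazl held 28 CpG with a ratio of 0.80, Tlr1 held 9 with a ratio of 0.51 and Cd180 held 5 with a ratio of 0.34.

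Pvrl3, which encodes the adhesion protein nectin-3, had the largest increase at 1.64 on the asinh scale. Its 13 contacts scored from 0 to 7.02 in ESC with a median of 0, and from 0 to 9.95 in EpiLC with a median of 5.24. Calls went from 1 to 8. Gained contacts fell together on chr16:48239210-48377226 in GRCm38, 1741 to 1876 kb away, over the bodies of Dppa4 and Dppa2, a neighbouring pair of genes active in pluripotent cells. This stretch, like the others below, was picked by its TET_WT scores, and the other lines did not enter the choice. The mean score there was 0.197 in ESC and 6.07 in EpiLC. The same region was higher in EpiLC in DNMT_WT (1.09 to 3.10), DNMT_KO (0.364 to 3.53) and TET_KO (1.05 to 3.10). The promoter average in those lines was higher by 0.75 ± 0.30 (SE), with a limma adjusted p of 0.147.

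Id2, an inhibitor of basic helix-loop-helix transcription factors, was higher by 1.17. Each of its 27 contacts scored higher in EpiLC. The median went from 0.85 (range 0 to 6.66) to 5.49 (range 0.22 to 14.9), and calls went from 2 to 16. Gained contacts gathered at chr12:26059368-26094395, 969 to 1003 kb away, where the mean went from 1.61 to 6.70 and was higher in EpiLC in the other 3 lines too. Id2 rose in those lines by 0.66 ± 0.14 (SE), limma adjusted p = 0.0361, and of the 10 it alone passed.

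Isx, an intestinal homeobox gene, went from 1 to 17 calls, with 30 of its 35 contacts higher in EpiLC. Its median contact score was 0 in ESC and 4.97 in EpiLC. The Isx promoter as a whole missed the limma threshold at an adjusted p of 0.154. Vcan, which encodes the matrix proteoglycan versican, went from 0 to 7 calls, and Opn5, an opsin, from 0 to 11. Gm15122 went from 0 to 20 calls, with every one of its 22 contacts higher. These last 3 have baits of 488, 570 and 498 bases, in the size range where TET_WT scores were generally higher in EpiLC, and the part of bait length in their values was not tested. Gcap14 went from 2 to 10 calls, yet its difference was 0.01 in DNMT_WT and 0.12 in DNMT_KO. Rp1, a photoreceptor gene, went from 6 to 10 calls. Its contacts lay at a median distance of 83884 kb. Of them, 4 were gained at chr1:88239615-88280173 and 2 lost in the overlapping stretch chr1:88226925-88257752.

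**Figure D3:**
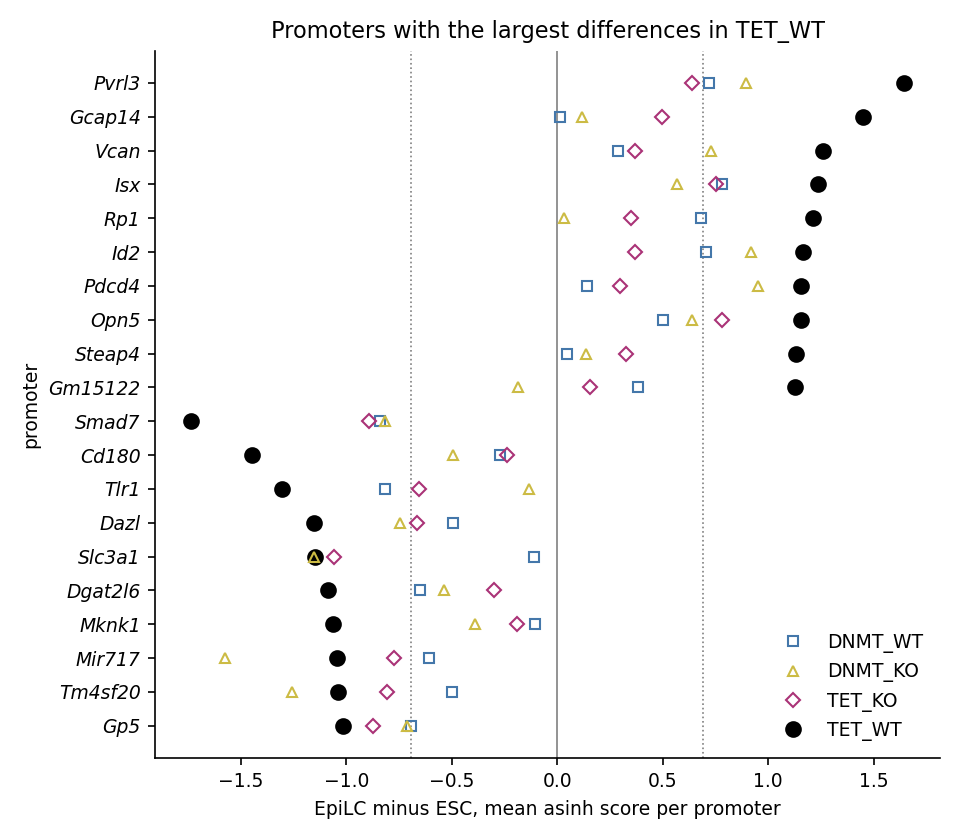
Difference between EpiLC and ESC in mean asinh score (horizontal axis) for the 20 named promoters, with 1 point for each line (filled for TET_WT, open for the others). TET_WT values run from 1.64 for Pvrl3 to -1.74 for Smad7, and the dotted lines mark 0.69 in each direction. For Smad7 and Pvrl3 the other lines lie nearer to 0 than TET_WT.

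By the same rule the 10 largest decreases were at Smad7, Cd180, Tlr1, Dazl, Slc3a1, Dgat2l6, Mknk1, Mir717, Tm4sf20 and Gp5. Of these, 5 fell in the other lines as well: Smad7, Dazl, Mir717, Tm4sf20 and Gp5. Smad7, the inhibitory SMAD that dampens TGF-beta and BMP signalling, had the largest decrease of these, at -1.74. All 12 of its contacts scored lower in EpiLC, the median going from 6.01 (range 4.25 to 10.8) to 1.15 (range 0.23 to 3.04). Calls went from 11 to 0. Mean scores of its contacts in the neighbouring gene Dym went from 6.78 to 0.80 and those of 3 fragments in Ctif 215 to 221 kb away from 5.54 to 1.74, and both regions were lower in EpiLC in all 4 lines. In the other lines Smad7 fell by 0.85 ± 0.21 (SE), limma adjusted p = 0.0422, and with fragments over 1000 bases the adjusted p was 0.0625.

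Dazl, the germ-cell RNA-binding protein whose promoter is a known methylation target, changed by -1.15. All 11 contacts were lower in EpiLC, with medians of 7.87 (range 1.67 to 15.5) and 2.21 (range 0 to 8.66), and calls went from 8 to 2. Contacts at chr17:49944011-49965362, 325 to 344 kb away, went from a mean of 6.64 to 1.89. That region was lower in EpiLC in DNMT_WT (6.02 to 2.73), in DNMT_KO (6.10 to 2.59) and in TET_KO (7.21 to 3.35). In the 3 lines Dazl fell by 0.63 ± 0.11 (SE), limma adjusted p = 0.0243. By line the promoter difference was -0.49 in DNMT_WT, -0.74 in DNMT_KO and -0.67 in TET_KO. The part of DNA methylation in these values was not tested.

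Gp5, a platelet glycoprotein gene, went from 17 to 3 calls, and 19 of its 22 contacts were lower. Its contacts in Opa1, a mitochondrial fusion gene, went from 6.23 to 1.69 in mean score, lower in EpiLC in all 4 lines. Gp5 fell in the other lines by 0.76 ± 0.20 (SE), limma adjusted p = 0.0483, and with fragments over 1000 bases the adjusted p was 0.0549. Tm4sf20, a tetraspan membrane protein gene, went from 9 to 1 calls and fell there with an adjusted p of 0.0459. Mir717, a microRNA gene, went from 3 to 0 calls on a bait of 651 bases and fell with an adjusted p of 0.0463. The other 5 missed the threshold. Cd180, a Toll-like receptor homologue of B cells, went from 8 to 0 calls. Mknk1, a kinase of a translation initiation factor, went from 7 to 1, and Slc3a1, an amino acid transporter subunit, from 4 to 0.

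Further promoters that moved the same way in all lines were chosen after their values were seen. Sstr1, a somatostatin receptor gene, went from 25 to 3 calls at a difference of -0.94, with 18 contacts lost, and fell in the other lines by 0.74 ± 0.16 (SE), limma adjusted p = 0.0358. Mitf, the melanocyte transcription factor, went from 8 to 1 calls at -0.84 and fell there by 0.72 ± 0.15 (SE) with the same adjusted p. Magi2, a synaptic scaffold gene, went from 0 to 5 calls at 1.07 from 1 of its baits and rose there by 1.16 ± 0.26 (SE), limma adjusted p = 0.0383. Dll1, a Notch ligand, was higher at 0.92 in TET_WT and rose there by 0.51 ± 0.11 (SE), limma adjusted p = 0.0387.

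Genes of naive pluripotency moved in both directions. Of the 27 tested, Klf4 and Nr5a2 were higher in EpiLC and Tbx3, Socs3 and Jam2 lower (7.41% and 11.1% of the list, beside 2.3% and 3.64% of all promoters), with a list median of -0.14 beside -0.02 over all promoters. Socs3 rested on 3 contacts with 0 calls at each stage. Between fragments over 1000 bases, where Nr5a2 had no value, 1 of 26 was higher (Klf4) and 1 lower (Jam2), beside 2.52% and 2.95% of all promoters. Klf4, a naive transcription factor, went from 2 to 14 calls. Of its 21 contacts 17 scored higher, the median going from 1.34 (range 0 to 5.42) to 5.39 (range 0 to 13.2). Other baits saw a distant pairing from the other side: Actl7a and SNORA17.260 contacted the fragment chr4:55490438-55493510 near Klf4 with scores of 2.63 and 2.60 in ESC and 6.78 and 7.27 in EpiLC, and both contacts were gained in all 4 lines. The Klf4 promoter average was higher in the other lines by 0.56 ± 0.17 (SE) and missed the threshold at a limma adjusted p of 0.0707.

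Tbx3, another naive factor, went the other way, from 12 to 3 calls with 9 lost and 2 gained. Its contacts at chr5:119367624-119400847, 271 to 302 kb away, went from 5.67 to 1.12, and were also lower in DNMT_WT (4.44 to 0.776), DNMT_KO (4.51 to 1.10) and TET_KO (3.74 to 2.40). The whole Tbx3 promoter nevertheless differed by only -0.11, 0.15 and 0.13 in those lines. Esrrb, a naive orphan receptor, changed by -0.33 and went from 8 to 3 calls. Nanog stayed near its level, with a difference of -0.21 and 28 against 25 calls, as did Klf2 with 14 against 13. Sox2 went from 7 to 12 calls at a difference of -0.06. Nr0b1, a naive nuclear receptor, changed by -0.44 in TET_WT and fell in the other lines by 0.90 ± 0.20 (SE), limma adjusted p = 0.0387. Prdm14 had under 3 listed contacts and no value.

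**Figure D4:**
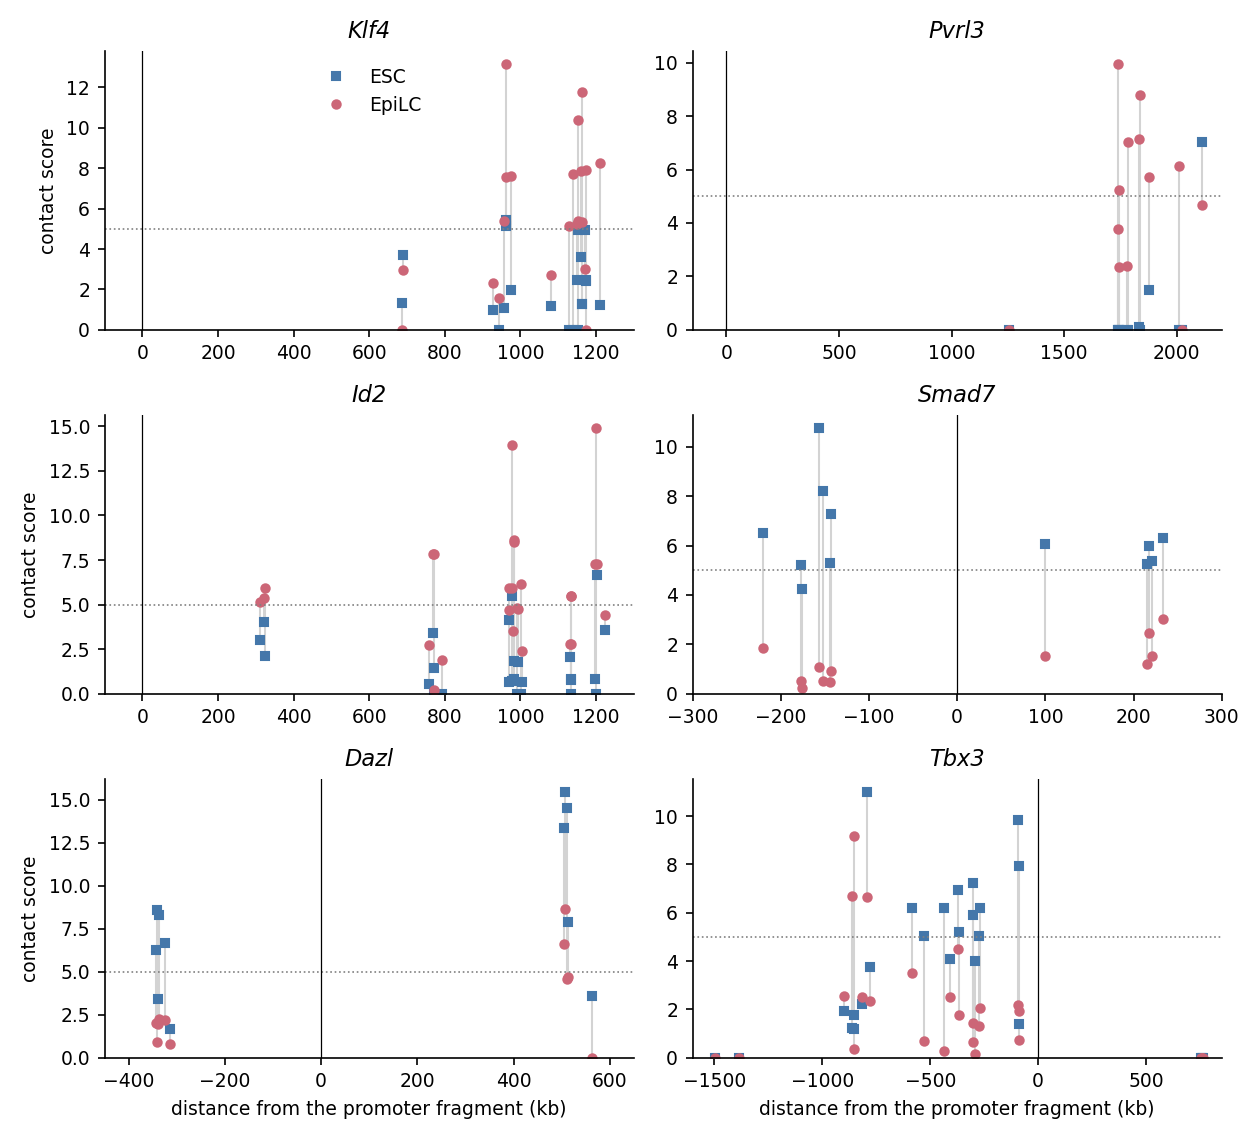
CHiCAGO score of each contact (vertical axis) against its distance from the promoter fragment in kb (horizontal axis) for 6 promoters in TET_WT, with ESC as squares, EpiLC as circles, a grey line joining both and a dotted line at the call limit of 5. Of the Klf4 contacts 17 of 21 lie above their ESC scores, and all 12 Smad7 contacts lie below theirs.

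Formative genes changed little by the promoter average. Of 20 tested, only Etv5, an ETS factor downstream of FGF signalling, passed 0.69 in TET_WT, at 0.72, and the list median was -0.02. The calls of all 29 promoters listed went from 125 to 172, beside a ratio of 1.09 over all contacts. Sox3 alone went from 9 to 25 calls, and the calls include short fragments. In the other lines Utf1, a pluripotency chromatin factor, rose by 1.14 ± 0.29 (SE), limma adjusted p = 0.046. Pou3f1, a POU factor induced in EpiLC, differed by -0.37 in TET_WT and went from 2 to 4 calls, and Dnmt3b, the main de novo methyltransferase of this stage, by -0.02 with 2 calls at each stage. Otx2 and Fgf5 had under 3 listed contacts. The methylation machinery held 19 tested genes, of which Mbd2, a methyl-CpG binding protein, was higher at 1.02 with 0 against 4 calls. Dnmt3l, a cofactor of de novo methylation, and Uhrf1, which recruits Dnmt1, each differed by 0.58. Tet2 and Tet3 differed by -0.12 and -0.18. In the other lines limma called 0 of these 19, and 4 had an unadjusted p below 0.05, which is 2 in each direction and near the share over all promoters given above.

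The 63 promoters of signalling genes had 308 calls in ESC and 438 in EpiLC, beside a ratio of 1.09 over all contacts. These calls include short fragments, and the calls of this list between long fragments alone were not counted. Of the 54 tested, 1 was higher and 1 lower. Inhba, which encodes the activin A subunit, went from 1 to 25 calls, with 18 contacts gained and a difference of 0.88. Most gained contacts lay in 3 stretches of the gene Sugct, 894 to 1424 kb away, whose mean scores went from 2.31 to 5.95, from 1.48 to 5.85 and from 1.71 to 5.90, each higher in EpiLC in all 4 lines. Inhba rose in the other lines by 0.89 ± 0.16 (SE), limma adjusted p = 0.024. Sfrp2, a secreted WNT modulator, was lower in TET_WT at -0.79.

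Blood and endothelial genes held contacts whose TET_WT direction differed from that of other lines. Of 23 promoters tested, Tek, an endothelial and blood stem cell receptor, was higher at 1.20 (limma adjusted p = 0.361 in the other lines), and Lmo2 and Ikzf1 were lower, Ikzf1 at -0.77. Ikzf1, the lymphoid factor Ikaros, fell in the other lines by 0.89 ± 0.23 (SE), limma adjusted p = 0.047. Lmo2, a bridging factor of the TAL1 complex, was at -0.75 on 3 contacts. Gata2 had 16 calls at each stage and Runx1 differed by -0.14. Tal1, a master regulator of blood formation, averaged -0.02, but its contacts at chr4:115947934-115987881, nearest to Dmbx1, went from 5.16 to 0.904 in mean score. The same contacts went from 1.01 to 6.56 in DNMT_WT, from 1.24 to 8.06 in DNMT_KO and from 0.907 to 2.68 in TET_KO. The contacts of Mknk1 with the stretch chr4:114984453-115006689 over Cmpk1 and Stil, the gene next to Tal1, went from 7.23 to 1.19 in TET_WT, from 1.08 to 3.92 in DNMT_WT, from 2.21 to 3.13 in DNMT_KO and from 1.54 to 0.935 in TET_KO. These contrasts between lines were noticed in the data and were not tested.

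Of 20 germline genes known to be silenced by DNA methylation, Dazl, Sycp3 (-0.77) and Tuba3b (-1.21) were lower in EpiLC and none was higher, with a median of -0.20, beside 3.64% lower and 2.3% higher over all promoters. Over all 25 promoters of the list 8 contacts were gained and 29 lost, while over all contacts 20889 were gained (8.29%) and 14638 lost (5.81%). These counts include short fragments, and the share of the list's own contacts was not computed. Sycp3 encodes a synaptonemal complex protein. It rested on 3 contacts, with calls going from 2 to 3, and Tuba3b on 4 contacts. Between fragments over 1000 bases, where Tuba3b had no value, 2 of 18 were lower, at a median of -0.11. The list medians in the other lines were -0.0009 in DNMT_WT, -0.19 in DNMT_KO and -0.04 in TET_KO. In the other lines Dazl and Syce1, another synaptonemal gene, fell. Among cadherins and related adhesion genes, Cdh6 (1.06), Pcdh17 (0.97), Cdh11 (0.79) and Cdh7 (0.72) passed the upper limit out of 18 tested and none was lower, beside 2.3% higher over all promoters. In this order they had 9, 6, 3 and 7 contacts, and calls went from 0 to 4, 0 to 1, 0 to 1 and 1 to 3. With contacts within 1 Mb alone 1 of 14 passed, at a median of 0.04, and between fragments over 1000 bases 4 of 17 did. The other lines differed among themselves: Cdh11, on 3 contacts, was at -1.40 in TET_KO, and Cdh6 at -0.28 in DNMT_KO and 0.02 in TET_KO. Pcdh17 rose in the other lines by 1.23 ± 0.29 (SE), limma adjusted p = 0.04. Of 31 Hox promoters none passed in either direction in TET_WT. Among 25 mesoderm and 10 endoderm genes none passed either. Over 22 neuroectoderm promoters, of which 21 were tested with a median of 0.13, the calls went from 70 to 117, again beside a ratio of 1.09 over all contacts. Short fragments are included in these calls too. Id2 was the one higher promoter of 15 in a trophoblast list, and none of 19 chromatin architecture genes passed. Of 11 promoters of fibroblast and feeder cell genes, Dpt, a dermal matrix protein gene, was lower at -1.15 and fell in the other lines by 1.25 ± 0.26 (SE), limma adjusted p = 0.0358.

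**Figure D5:**
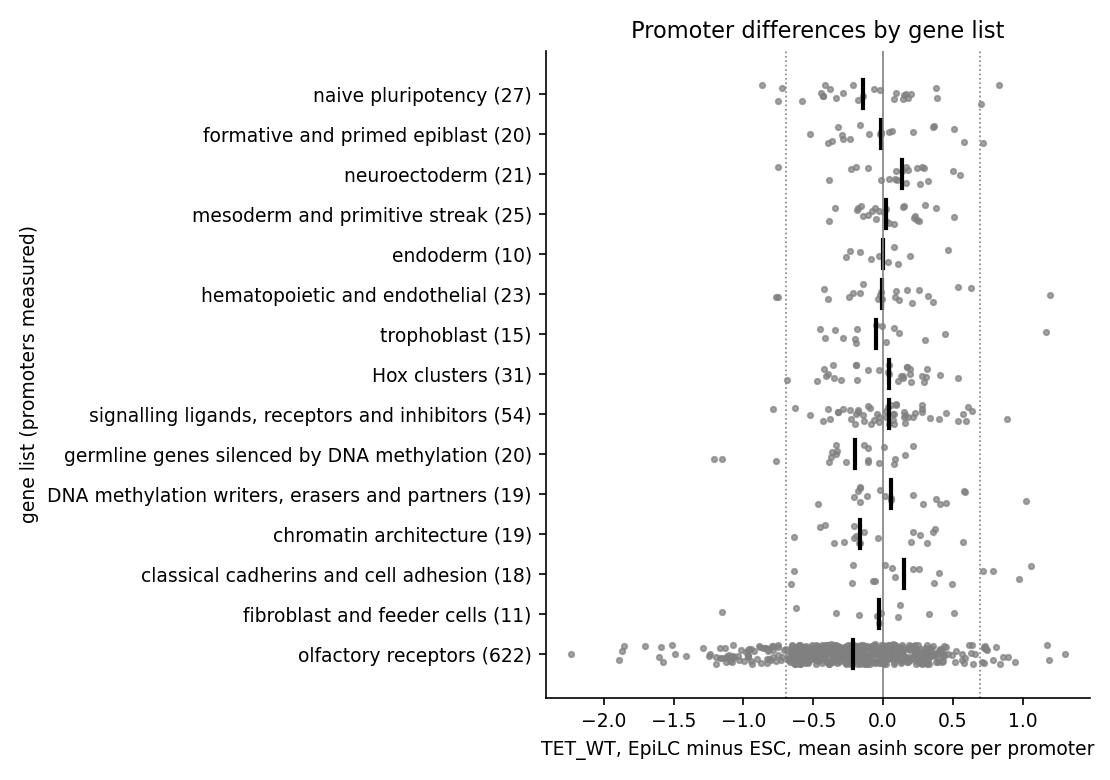
Difference between EpiLC and ESC in mean asinh score (horizontal axis) in TET_WT for each promoter of each gene list (grey points), with list medians as black bars and dotted lines at 0.69 in each direction. Germline and olfactory receptor promoters have medians of -0.20 and -0.21, and the median over all promoters is -0.02.

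Olfactory receptor promoters, which lie in large gene clusters largely silent outside the nose, were the longest list. Of 622 tested, 69 were lower (11.1%, beside 3.64% of all promoters) and 16 higher, around a median of -0.21. With fragments over 1000 bases the numbers were 59 and 16 of 573, and the median was -0.14. The medians in the other lines were -0.11, -0.27 and -0.25. Without normalisation the olfactory median was -0.09, while that of all promoters was 0.08, so the list lay below the rest under both scalings. Of all 1 Mb windows, those over the keratin clusters had the largest net losses between long fragments. The type II keratin megabase at 101 to 102 Mb of chromosome 15 had 20 contacts gained and 156 lost of 949 listed. The numbers gained and lost there were 28 and 112 in DNMT_WT, 15 and 177 in DNMT_KO, and 28 and 91 in TET_KO. The type I keratin and keratin-associated cluster at 99 to 100 Mb of chromosome 11 had 76 gained and 201 lost of 1967 listed. Its numbers were 104 and 173 in DNMT_WT, 87 and 258 in DNMT_KO, and 55 and 208 in TET_KO. These windows were named after their values were seen.

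The start windows of 9294 tested promoters overlapped their baits. The 325 lower ones had a GC content of 55.0% and a CpG observed to expected ratio of 0.53, against 57.7% and 0.63 over all, and the 203 higher ones had 58.7% and 0.66. The motif GGGCGG, searched on both strands, was present in 58.6% of higher, 40.9% of lower and 51.2% of all windows. Leaving out olfactory receptors brought the lower set to a GC content of 58.0% and a CpG ratio of 0.67, next to 58.3% and 0.66 for all. GGGCGG then stood in 62.3% of higher, 49.6% of lower and 54.1% of all. CCTGCTG was found in 8.37% of higher, 12.3% of lower and 10.9% of all windows, and ATGCAAAT in 1.48%, 1.54% and 1.69%. CCACCC stood in 37.4% of higher, 28.9% of lower and 35.3% of all windows, AAGCTT in 8.87%, 6.15% and 6.49%, and CCACNAGG in 5.91%, 3.69% and 5.02%. These shares are descriptions and a match is not a bound site. Of the sequences printed above, Gcap14 held GGGCGG 3 times, Vcan held GGGCGG 2 times, CCACCC 4 times and AAGCTT 1 time, Isx held CCTGCTG 1 time, and Dazl, Tlr1 and Cd180 held none of the motifs searched.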

How the data were processed

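Promoter-capture Hi-C was made from HindIII-digested chromatin of 16 mouse samples, of which the 4 TET_WT samples are described. The deposited table holds 1 CHiCAGO score per interaction and group, computed by the authors, and a distance in bases. Per the submitters' processing notes, trimming used Trim Galore 0.6.5 with cutadapt 2.3, and the build was GRCm38. The aligner, the CHiCAGO version and the way replicates were joined were not given in those sources. Promoter averages omit 15344 interactions that lack a score in any of the columns. Scores were quantile normalised over 8 columns, asinh transformed and averaged over promoters with at least 3 interactions. The 3 other lines were tested with limma 3.58.1 in R 4.3.3 (line as block, trend, Benjamini-Hochberg, threshold 0.05), and the code was tested on simulated data. Named promoters are the 10 largest differences in each direction with at least 10 interactions, joined by list genes of known role. The members and lists were chosen with earlier results of these data known. Gene positions and start windows came from RefSeq. Motifs searched on both strands were GGGCGG (the GC box), CCACCC (bound by KLF factors), ATGCAAAT (the octamer), CCTGCTG (of ZIC factors), AAGCTT (the HindIII site) and CCACNAGG (a CTCF core), each counted even where it overlaps another. Alternatives covered the call threshold, the scaling, the minimum of interactions, the scale, distance and fragment length. A few results are not reported here.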

Additional observations from a re-analysis of the deposited data

Results flagged for a closer look

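Olfactory receptors were left out here, although some past 0.69 moved in TET_WT against DNMT_WT, the other wild-type line. Among the other promoters past 0.69 that were named or listed, and the stretches contacted by named promoters, 4 results moved in TET_WT against DNMT_WT. Sign differences from the knock-out lines alone, such as that of Tbx3, are not counted among them. None of these differences was tested, since each line has 1 column per stage. The Lmo2 promoter differed by -0.75 in TET_WT by 0.57 in DNMT_WT, by -0.84 in DNMT_KO and by 0.14 in TET_KO, over 3 contacts. The contacts of Cd180 in the Slc30a5 stretch changed in mean score by -6.06 in TET_WT, against 0.436 in DNMT_WT, 0.406 in DNMT_KO and 2.93 in TET_KO. The contacts of Mknk1 with Cmpk1 and Stil changed by -6.03, against 2.83 in DNMT_WT and 0.929 in DNMT_KO, while TET_KO, which derives from TET_WT, changed by -0.610. The Tal1 contacts near Dmbx1 changed by -4.25, against 5.55 in DNMT_WT, 6.81 in DNMT_KO and 1.77 in TET_KO.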

How the results depend on the processing

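No paired analysis was possible because the table gives 1 column per group with no values per replicate, and leaving out replicates was not run for the same reason. This concerns replicate numbers, since the test of the other lines paired the stages by line. No named promoter with a difference past 0.69 changed sign under any of the 9 alternatives that gave it a value. Vcan, Opn5, Gm15122, Tlr1 and Mir717 had none between fragments over 1000 bases. Pvrl3, Gcap14, Isx, Rp1, Pdcd4 and Steap4 had a value in 9 of 10 settings, and Pvrl3 and Pdcd4 had no contact within 1 Mb. Sizes moved more: the lowest difference was 0.09 for Opn5 and 0.40 for Vcan. Tbx3 stayed past 0.69 in 5 of 10 settings and Lmo2 in 4 of 8, while Id2 and Smad7 did so in all 10. The EpiLC to ESC call ratio was 1.09 over all contacts, 1.13 at a threshold of 7, 1 after quantile normalisation and 0.984 between fragments over 1000 bases. For under 100 kb the same 3 settings gave 1.09, 0.962 and 0.958, for 100 kb to 1 Mb 1.11, 0.991 and 0.969, and for 1 to 10 Mb 1.87, 1.62 and 1.53. Beyond 10 Mb long fragments gave 1.06, and between chromosomes quantile normalisation and complete scores each gave 1.13. The ratio of gained to lost contacts was 1.43. It was 1.91 with a lower limit of 1 (4951 gained, 2594 lost), 1.97 with a threshold of 7 (4383 and 2230), 1.04 after quantile normalisation and 0.968 between long fragments, where 11873 were gained. Higher promoters numbered 599 without scaling, 782 with no minimum, 103 with at least 10 contacts, 144 on the log2 scale and 635 over calls alone. Lower promoters numbered 315, 1222, 97 and 258 under the first 4. The ratio of higher to lower was 0.630, and 1.90 without scaling, 1.16 with column means, 1.06 with at least 10 contacts, 1.02 over calls, 0.459 within 1 Mb and 0.855 between long fragments. In the other lines 359 rose and 426 fell in the DNMT lines alone, 322 rose in the knock-outs alone, and 103 fell without scaling. The higher promoters that rose were 44 without scaling and 40 in the knock-outs, and the lower ones that fell were 14 without scaling. List genes higher in TET_WT were 17 without scaling and 6 within 1 Mb, and lower ones 4 without scaling. The fragment length limit and the knock-out-only test were chosen after seeing the data, and the causes of these changes were not tested. Depth, which the table does not give, limits every count of calls.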
